A study of Mus musculus with 18 samples.

Results

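Entry into mitosis is set by a switch on the cyclin-dependent kinase CDK1. The kinases WEE1 and PKMYT1 hold CDK1 inactive by phosphorylating its inhibitory residues, and the CDC25 phosphatases remove those phosphates. When DNA is damaged or replication stalls, ATR with its partner ATRIP activates CHK1 through the adaptor claspin, ATM activates CHK2, and both effector kinases restrain the CDC25 proteins. Loss of BRCA2 impairs homologous recombination and the protection of stalled forks, so cells without it are known to lean on ATR, CHK1 and WEE1.

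The 10 genes described here, out of 27179 counted, encode this switch: Wee1, Pkmyt1, Cdc25a, Cdc25b, Cdc25c, Chek1, Chek2, Atr, Atrip and Clspn. They were taken by symbol from the series-wide count table, and all 10 passed the filter on low counts. The set was drawn up with earlier results in view, because Wee1 had been seen to respond to genotype in opposite directions by lineage. It was thus selected on its measured KO against WT differences in basal and LP cells. The values of Wee1 are therefore given as a description with no test. The other 9 genes were named by function, and counts of them are read only beside the same share over all genes.

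Messenger RNA was sequenced from 3 sorted populations of the mammary gland, basal cells, luminal progenitors (LP) and mature luminal cells (ML), of female mice aged 14 weeks. In the knockout (KO) mice, 3 animals, the design text gives MMTV-cre(T/+), Brca2(delta/delta) and Trp53(delta/+), a Cre driven by the mouse mammary tumour virus promoter with Brca2 deleted on both alleles and Trp53 on 1 allele. The wildtype (WT) mice, also 3 animals, are given as wildtype, although every library, KO or WT, carries the same strain name of MMTVcre with Brca2(fl/fl) and Trp53(fl/+). Sample names say knockdown where the genotype label says Brca2KO, and the groups follow the genotype label. Each mouse gave 1 library per population, so 18 libraries form 6 groups of 3. Every effect of KO is thus that of Brca2 and Trp53 together. The sources used here leave unsaid whether the WT mice carried the transgene.

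Totals ran from 5.97 M to 39.19 M counts per library, and in LP cells the KO libraries (22.42 M to 32.72 M) were all deeper than the WT libraries (9.29 M to 16.17 M). Levels are counts scaled to library size (CPM), and RPKM, which divides by gene length, is used wherever genes are compared with each other. The edgeR quasi-likelihood test was run on 16466 genes, and adjusted p-values are over all of them. The targeted gene Trp53 was lower in KO in each population, at 13.7 to 35.8 against 57 to 88.7 CPM in basal cells, 7.25 to 9.05 against 67.1 to 150.3 CPM in LP and 13.6 to 17 against 39.6 to 49.2 CPM in ML (edgeR adjusted p = 0.0059, 2.2e-05 and 0.0029; in basal cells 0.089 and 0.07 without KO mouse 2 and 3). Whole-gene Brca2 counts overlapped between the genotypes in each population and do not test a deletion of some exons. The sorts carried their markers, though less so in some KO sorts. The 10 basal markers summed in basal cells to 14718 to 19356 CPM in KO and 19471 to 22591 CPM in WT, and the 10 mature luminal markers in ML to 1740.0 to 4883 CPM in KO and 7513 to 10155 CPM in WT, both without overlap. The 10 progenitor markers in LP overlapped, at 6833 to 13185 CPM in KO and 4424 to 12129 CPM in WT. Markers of other populations differed as well. In ML, basal markers summed to 723 to 890.2 CPM in KO and 19.7 to 25.8 CPM in WT, and progenitor markers to 758 to 3204 CPM in KO and 205 to 255 CPM in WT. Also in ML, immune markers summed to 8.81 to 57.8 CPM in KO and 3.8 to 6.01 CPM in WT. Endothelial markers there summed to 86.4 to 204 CPM in KO and 229 to 282 CPM in WT, and pan-luminal markers to 8171 to 8350.4 and 11124 to 13412 CPM. In basal cells, progenitor markers summed to 129.9 to 326 CPM in KO and 42 to 101 CPM in WT. Mature luminal markers there summed to 239 to 281 CPM in KO and 159 to 184 CPM in WT, and fibroblast markers to 451 to 586 and 379 to 429 CPM. In LP, mature luminal markers summed to 276 to 543 CPM in KO and 775 to 1141 CPM in WT, and immune markers to 31.5 to 226 CPM in KO and 12.4 to 17.4 CPM in WT. The part of these shifts in the results that follow was not tested. In bulk samples, fewer cells of a type and less RNA per cell cannot be told apart.

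The promoter windows of 5 of the genes are shown because 4 of them (Cdc25b, Clspn, Chek1 and Chek2) were higher in KO in at least 1 population and 1 (Atr) was lower. Windows were taken for 7 of the 10 genes from a RefSeq promoter table in GRCm38.p6, the assembly also called mm10. Wee1 and Pkmyt1 had no matched entry, and Cdc25c was left out of the search. Each window holds 300 bases, 250 before and 50 after the start site used by that table. That site is the annotated gene start for Chek1 and Atr. It lies 23 bases inside the gene for Clspn, 183 for Chek2 and 512 for Cdc25b, whose window is thus wholly within the gene as annotated. Capitals mark a CCAAT box (CCAAT) or an E2F core (TTCCCGC or TTGGCGC) on either strand.
Cdc25b, chr2:131186698-131186997, + strand: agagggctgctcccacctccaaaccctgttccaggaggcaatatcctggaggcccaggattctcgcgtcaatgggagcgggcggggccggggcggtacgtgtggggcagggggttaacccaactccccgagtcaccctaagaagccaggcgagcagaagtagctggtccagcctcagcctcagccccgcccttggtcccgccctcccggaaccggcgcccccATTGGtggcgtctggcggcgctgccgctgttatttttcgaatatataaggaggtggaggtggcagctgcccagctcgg
Clspn, chr4:126556730-126557029, + strand: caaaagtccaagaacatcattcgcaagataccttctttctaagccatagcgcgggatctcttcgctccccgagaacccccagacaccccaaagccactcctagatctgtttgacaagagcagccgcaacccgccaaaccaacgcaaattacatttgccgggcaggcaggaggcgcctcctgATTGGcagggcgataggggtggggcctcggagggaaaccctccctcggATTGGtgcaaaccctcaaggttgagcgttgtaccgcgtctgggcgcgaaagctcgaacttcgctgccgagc
Chek1, chr9:36726609-36726908, - strand: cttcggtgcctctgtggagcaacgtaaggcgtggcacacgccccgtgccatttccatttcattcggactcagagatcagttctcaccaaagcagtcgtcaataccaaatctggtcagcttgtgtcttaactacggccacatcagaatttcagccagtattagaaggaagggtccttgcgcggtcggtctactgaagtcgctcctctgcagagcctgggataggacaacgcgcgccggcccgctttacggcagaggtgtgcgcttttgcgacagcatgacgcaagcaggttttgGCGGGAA
Chek2, chr5:110839733-110840032, + strand: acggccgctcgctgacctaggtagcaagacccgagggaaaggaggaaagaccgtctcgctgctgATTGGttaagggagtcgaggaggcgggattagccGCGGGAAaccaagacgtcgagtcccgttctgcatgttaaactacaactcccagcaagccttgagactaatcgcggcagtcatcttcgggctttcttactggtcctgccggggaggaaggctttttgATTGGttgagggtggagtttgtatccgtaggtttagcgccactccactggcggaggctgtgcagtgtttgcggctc
Atr, chr9:95857347-95857646, + strand: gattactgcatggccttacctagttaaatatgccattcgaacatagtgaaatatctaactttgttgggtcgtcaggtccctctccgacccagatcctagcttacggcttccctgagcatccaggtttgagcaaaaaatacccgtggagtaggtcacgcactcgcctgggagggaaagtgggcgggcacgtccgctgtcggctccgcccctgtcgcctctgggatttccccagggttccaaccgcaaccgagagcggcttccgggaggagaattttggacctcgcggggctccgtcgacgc
The cell cycle homology region TTTGAA, searched on both strands like the others, was in 0 of the 7 windows, against 17.9% of 32851 promoter windows of this length. A CCAAT box was in 5 of the 7 (Cdc25a, Cdc25b, Chek2, Atrip and Clspn), against 37.4% of all windows. An E2F core was in 3 (Cdc25a, Chek1 and Chek2), against 6.81%. No motif overlapped one of another kind. Cdc25c was not among the 7 windows, so these counts say nothing of its promoter. The motifs were chosen after the windows had been read, and these matches only describe the letters of each window.

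Wee1 encodes the nuclear kinase that phosphorylates CDK1 (gene 22390, chromosome 7, 110122059 to 110143299 in GRCm38). In LP cells its level was 61.6, 62.3 and 86.1 CPM in KO and 146, 230.2 and 237 CPM in WT, so that every KO library lay below every WT library (log2 difference -1.55, SE 0.21, a 2.92-fold lower level). Basal cells stood the other way round, with 72.6, 73.5 and 74.6 CPM in KO against 40.1, 48.9 and 52.4 CPM in WT. Every basal KO library was above every basal WT library (log2 difference 0.64, SE 0.21, a 1.56-fold higher level). In ML cells the genotypes overlapped, at 71.7, 76.8 and 83.7 CPM in KO and 58.9, 74.4 and 74.5 CPM in WT (log2 difference 0.16, SE 0.21). The genotype effect in LP was lower than that in basal cells by a log2 difference of -2.19 (SE 0.30) and lower than that in ML by -1.71 (SE 0.30). No test of these comparisons is given, for the reason stated above, and each SE here is only a description. The 9 KO libraries spanned 61.6 to 86.1 CPM across all 3 populations, and the 9 WT libraries 40.1 to 237 CPM. From high to low, the mean level ran LP WT, ML KO, basal KO, LP KO, ML WT and basal WT. The libraries of LP WT lay above all others and those of basal WT below all others, while the 4 groups between them overlapped with their neighbours.

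Among the WT populations Wee1 was highest in LP. Its level there was above that of basal cells by a log2 difference of 2.12 (SE 0.22) and above that of ML by 1.56 (SE 0.21), and ML lay above basal cells by 0.56 (SE 0.21), each without overlap. The same WT libraries enter the genotype differences on which Wee1 was selected, so these values too are a description with no test. They ranged over 14 other settings from 1.99 to 2.21, from 1.38 to 1.82 and from 0.38 to 0.68. In RPKM, Wee1 had the highest mean of the 10 genes in LP KO, LP WT, ML KO, ML WT and basal KO, at 59.8 ± 14.8 RPKM in LP WT (SD, n = 3). In basal WT it averaged 13.8 ± 1.85 RPKM, next to Atrip at 14.8 ± 4.13 RPKM.

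**Figure D1:**
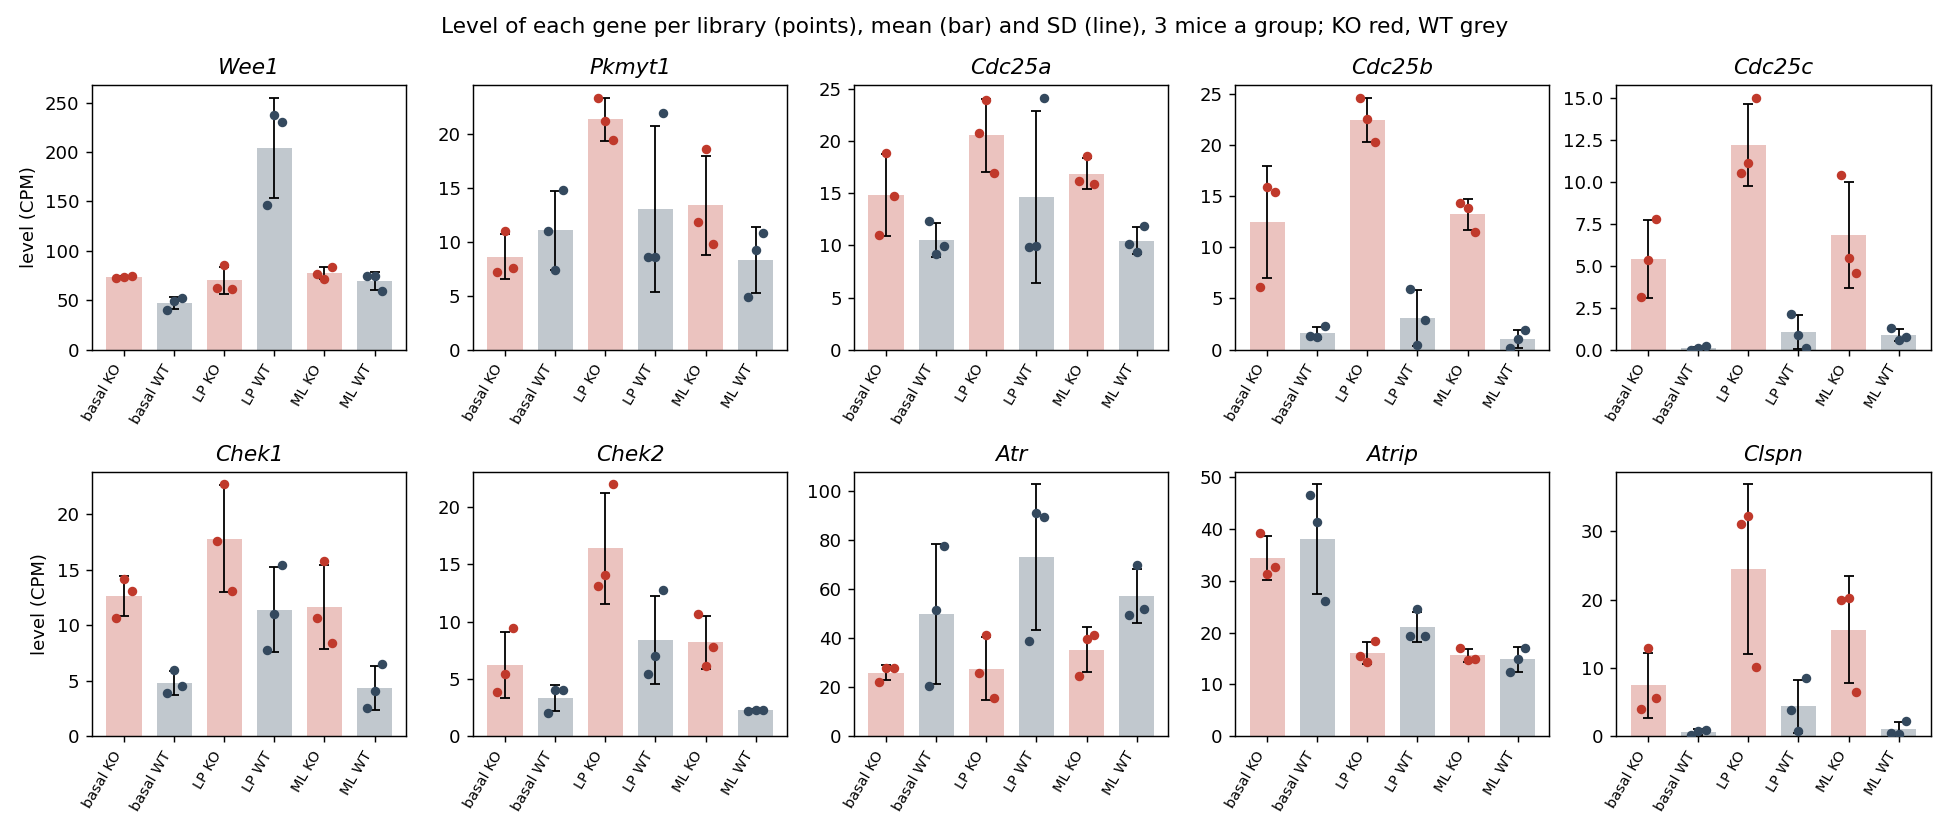
Level of the 10 genes in CPM (y axis, from 0) in the 6 groups (x axis, KO red and WT grey), with a point per library, the mean as a bar and the SD as a line. Wee1 stands at 146 to 237 CPM in LP WT and at 61.6 to 86.1 CPM in LP KO, while Cdc25b and Cdc25c are near the axis in the WT groups.

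The genes most like Wee1 in pattern were sought among 12229 genes with a mean of at least 2 CPM. Over the 18 libraries these were Klf6 (Pearson r = 0.873), Klhl9 (0.851) and Txnip (0.848), and over the 6 group means Zfp65 (0.968), Scyl2 (0.96) and Marchf7 (0.96). Klf6, a zinc finger transcription factor, averaged 2407 CPM in LP KO and 6366 CPM in LP WT. The points share libraries, mice and the 6 groups, so r is a description.

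Pkmyt1 encodes the membrane-bound kinase that phosphorylates CDK1 alongside WEE1 (gene 268930, chromosome 17, 23726336 to 23736735). Its levels in LP were 19.5, 21.2 and 23.4 CPM in KO and 8.56, 8.64 and 22 CPM in WT. WT mouse 3 alone put the genotypes into overlap, and the log2 difference of 0.70 (SE 0.39, edgeR adjusted p = 0.24) became 1.33 without that mouse (adjusted p = 0.03, range over 14 settings 0.03 to 0.56). In ML it stood at 9.81, 11.8 and 18.6 CPM in KO and 4.91, 9.26 and 10.8 CPM in WT (log2 difference 0.67, SE 0.40, edgeR adjusted p = 0.28). Basal levels were 7.19, 7.61 and 11 CPM in KO and 7.43, 11 and 14.8 CPM in WT (log2 difference -0.35, SE 0.39, edgeR adjusted p = 0.9). The genotypes overlapped in both ML and basal cells. LP KO had the highest mean and lay apart from the next group, and the other 5 groups overlapped with their neighbours. Pkmyt1 overlaps the gene Paqr4 at its end and 1520401A03Rik at the other. The kit named in the labels does not mark strand, so reads in those stretches cannot be assigned by strand and are uncertain.

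Of the CDC25 phosphatases, Cdc25b and Cdc25c rose in KO in each population, while the differences of Cdc25a did not pass the test. Cdc25b, which encodes a phosphatase that starts CDK1 activation at the centrosome (gene 12531, chromosome 2, 131186436 to 131198511), stood at 6.16, 15.4 and 15.9 CPM in basal KO and 1.22, 1.3 and 2.26 CPM in basal WT. It stood at 20.3, 22.5 and 24.6 CPM in LP KO and 0.445, 2.94 and 5.92 CPM in LP WT. In ML it stood at 11.5, 13.8 and 14.3 CPM in KO and 0.158, 1 and 1.88 CPM in WT. No KO library overlapped a WT library of its population. The log2 differences were 3.00 (SE 0.63, edgeR adjusted p = 0.011) in basal cells, 2.87 (SE 0.61, adjusted p = 0.0062) in LP and 3.51 (SE 0.65, adjusted p = 8.6e-04) in ML. In basal cells the call was lost without KO mouse 2 (adjusted p = 0.089) or KO mouse 3 (0.078), with a range over 14 settings of 2.2e-05 to 0.089. In LP and ML it held in all 14 (up to 0.039 and 0.0051). LP KO lay above all other groups, and the 3 WT groups lay below the 3 KO groups.

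Cdc25c encodes the phosphatase best known for switching CDK1 on at mitosis (gene 12532, chromosome 18, 34732993 to 34751564). It had 359 counts over the 3 basal KO libraries and 4 over the 3 basal WT libraries, a ratio of scaled pooled counts of 75.1 (95% exact interval 29.1 to 277, counting error only). In CPM, basal KO stood at 3.13, 5.31 and 7.75 and basal WT at 0, 0.0718 and 0.188. LP KO stood at 10.5, 11.1 and 15 CPM and LP WT at 0.123, 0.89 and 2.1 CPM. ML KO stood at 4.55, 5.47 and 10.4 CPM and ML WT at 0.584, 0.727 and 1.27 CPM. Again no KO library overlapped a WT library of its population. The fitted log2 differences were 6.12 (SE 0.87, edgeR adjusted p = 3.1e-04) in basal cells, 3.67 (SE 0.68, adjusted p = 0.0025) in LP and 3.04 (SE 0.68, adjusted p = 0.0042) in ML, and each call held in the 14 other settings (up to 0.011, 0.033 and 0.045). The basal value rests on the 4 WT counts and depends on the prior count of the fit. The difference between the ML and the basal effect was -3.08 (SE 1.12, edgeR adjusted p = 0.13), and it passed with DESeq2 alone of the 14 settings (adjusted p = 0.049, range 0.049 to 0.46).

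Cdc25a, which encodes a phosphatase acting from the start of S phase through to mitosis (gene 12530, chromosome 9, 109875518 to 109893895), did not pass in any population. Basal KO stood at 11, 14.7 and 18.9 CPM and basal WT at 9.15, 9.98 and 12.3 CPM. LP KO stood at 17, 20.8 and 24 CPM and LP WT at 9.87, 9.9 and 24.2 CPM. In ML the groups did not overlap, at 15.9, 16.2 and 18.6 CPM in KO and 9.34, 10.1 and 11.9 CPM in WT. The log2 differences were 0.51 (SE 0.32, edgeR adjusted p = 0.71) in basal cells, 0.48 (SE 0.32, adjusted p = 0.33) in LP and 0.69 (SE 0.32, adjusted p = 0.17) in ML. The LP value became 1.08 without WT mouse 3 and then passed (adjusted p = 0.031, range 0.031 to 0.7).

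Per length, the make-up of the Cdc25 messages differed by genotype. Cdc25a made up 31.4% to 46.0% of summed Cdc25 RPKM in basal KO against 77.2% to 89.1% in basal WT. Its share was 24.8% to 34.0% in LP KO against 47.9% to 87.0% in LP WT and 31.1% to 42.3% in ML KO against 77.2% to 80.6% in ML WT. Summed RPKM of Wee1 and Pkmyt1 was 24.8 to 26.9 in basal KO and 17.1 to 22.6 in basal WT. It was 27.6 to 35.6 in LP KO and 47 to 78.1 in LP WT, and 28.2 to 30.1 in ML KO against 22.5 to 26.3 in ML WT. Divided by the summed RPKM of the 3 Cdc25 genes, it gave a ratio of 1.98 to 3.74 in basal KO against 4.52 to 6.33 in basal WT. The ratio was 1.46 to 1.83 in LP KO against 8.28 to 22.1 in LP WT, and 1.97 to 2.82 in ML KO against 5.29 to 8.24 in ML WT. All 9 KO libraries were below all 9 WT libraries. The ratio contains Wee1, so no test is given. It is a ratio of messages and says nothing of protein or enzyme activity.

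**Figure D2:**
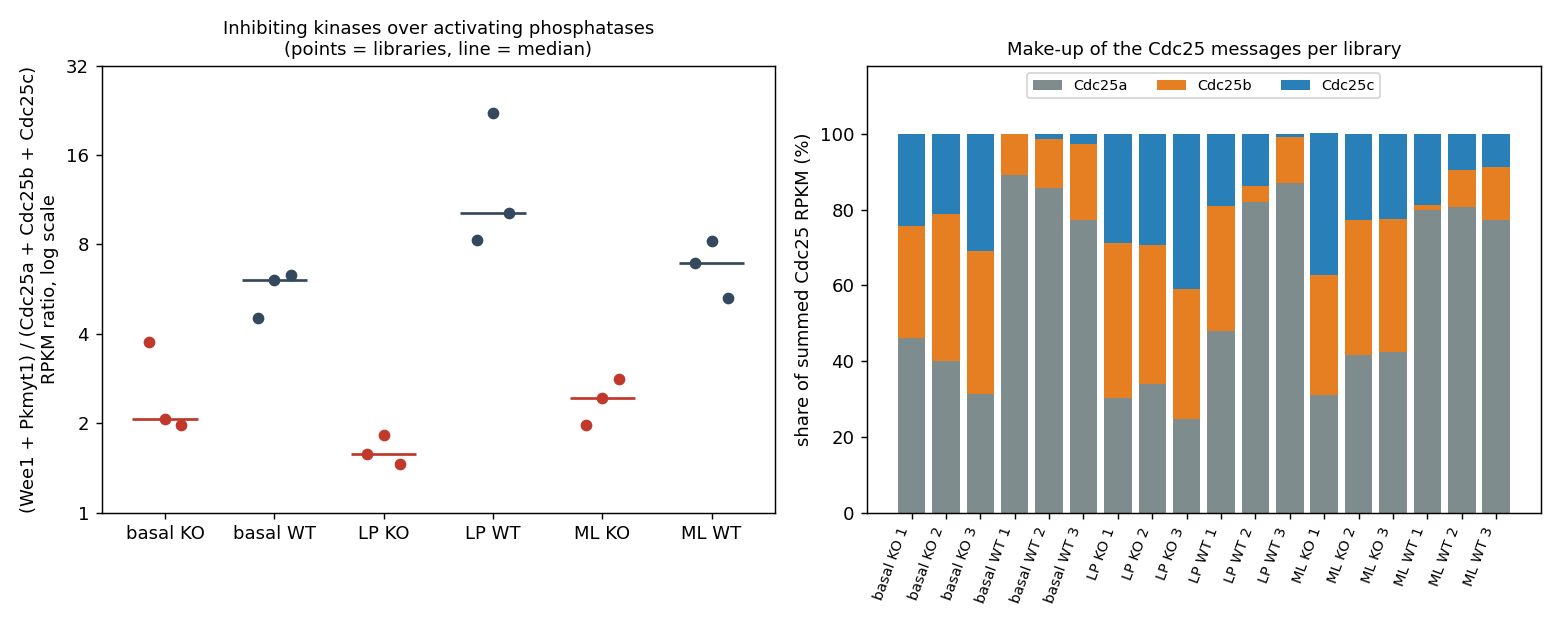
Left, ratio of summed RPKM of Wee1 and Pkmyt1 to that of Cdc25a, Cdc25b and Cdc25c on a log scale, with a point per library and the group median as a line; right, share of each Cdc25 gene in summed Cdc25 RPKM per library. Ratios lie between 1.46 and 3.74 in KO (red) and between 4.52 and 22.1 in WT (grey), and the Cdc25a share is smaller in KO than in WT of each population.

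Chek1 encodes CHK1, the effector kinase of the ATR branch (gene 12649, chromosome 9, 36708482 to 36726658). Basal KO stood at 10.7, 13.1 and 14.2 CPM against 3.9, 4.52 and 5.99 CPM in basal WT, with no overlap (log2 difference 1.39, SE 0.37, edgeR adjusted p = 0.048). That call sat at the threshold of 0.05. It was lost with limma voom (0.058), with libraries thinned to 1 depth (0.16) and without any 1 mouse (0.09, 0.21 and 0.13 without KO mouse 1, 2 and 3, and 0.098, 0.14 and 0.11 without WT mouse 1, 2 and 3), with a range over 14 settings of 0.0034 to 0.21. ML KO stood at 8.42, 10.7 and 15.8 CPM against 2.53, 4.09 and 6.5 CPM in ML WT, again without overlap (log2 difference 1.38, SE 0.37, edgeR adjusted p = 0.016). It was lost in a fit of the ML libraries alone (0.051) and without KO mouse 2 (0.1) or WT mouse 2 (0.081), with a range of 0.0015 to 0.1. In LP the groups overlapped, at 13.1, 17.6 and 22.7 CPM in KO and 7.77, 11 and 15.4 CPM in WT (log2 difference 0.64, SE 0.36, edgeR adjusted p = 0.24). Among WT populations Chek1 was highest in LP, by a log2 difference of 1.25 over basal cells (SE 0.37, edgeR adjusted p = 0.012) and of 1.35 over ML (SE 0.37, adjusted p = 0.0093). The first was lost when thinned to 1 depth (0.051) and without WT mouse 3 (0.13, range 0.0032 to 0.13), the second without WT mouse 2 (0.064, range 0.001 to 0.064).

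The genes most like Chek1 over the 18 libraries were Pole (r = 0.949), Endod1 (0.941) and E2f1 (0.934), of which Pole encodes a replicative DNA polymerase and E2f1 a transcription factor of the G1/S transition. Over the 6 group means they were Cmpk2 (0.992), Brip1 (0.99) and Cenpp (0.987). For Cdc25b they were Mastl (0.964), Cdc20 (0.947) and Kif20a (0.944) over the libraries and Mastl (0.995), Bard1 (0.994) and Plk1 (0.994) over the group means. Mastl encodes the Greatwall kinase, Cdc20 a mitotic activator of the anaphase-promoting complex, Kif20a a mitotic kinesin and Plk1 a mitotic kinase.

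Chek2 encodes CHK2, the effector kinase of the ATM branch (gene 50883, chromosome 5, 110839800 to 110874140). ML KO stood at 6.13, 7.79 and 10.7 CPM against 2.22, 2.31 and 2.34 CPM in ML WT (log2 difference 1.83, SE 0.43, edgeR adjusted p = 0.0059), and this call held in all 14 settings (2.1e-04 to 0.037). LP KO stood at 13.1, 14.1 and 22 CPM against 5.43, 7 and 12.8 CPM in LP WT, without overlap (log2 difference 0.95, SE 0.40, edgeR adjusted p = 0.12). That difference passed without WT mouse 3 (1.42, adjusted p = 0.049, range 0.049 to 0.36). Basal cells overlapped, at 3.84, 5.44 and 9.45 CPM in KO and 2.08, 4.02 and 4.05 CPM in WT (log2 difference 0.88, SE 0.41, edgeR adjusted p = 0.45). In WT, Chek2 was higher in LP than in basal cells by 1.33 (SE 0.41, edgeR adjusted p = 0.016) and than in ML by 1.89 (SE 0.43, adjusted p = 0.0024). Both were lost without WT mouse 3 (0.15 and 0.051, ranges 0.0065 to 0.15 and 6.9e-05 to 0.051).

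Clspn encodes claspin, the adaptor through which ATR reaches CHK1 (gene 269582, chromosome 4, 126556957 to 126594533). It had 625 counts over the basal KO libraries and 33 over the basal WT libraries. Basal KO stood at 4, 5.61 and 12.9 CPM against 0.156, 0.718 and 0.942 CPM in basal WT (log2 difference 3.69, SE 0.86, edgeR adjusted p = 0.024). LP KO stood at 10.2, 31.1 and 32.2 CPM against 0.778, 3.82 and 8.52 CPM in LP WT (log2 difference 2.45, SE 0.76, adjusted p = 0.04). ML KO stood at 6.56, 20 and 20.3 CPM against 0.334, 0.475 and 2.22 CPM in ML WT (log2 difference 3.76, SE 0.83, adjusted p = 0.0039). KO lay above WT without overlap in each population. The ML call held in all 14 settings (6.6e-06 to 0.02). The basal call was lost with limma voom (0.083) and without KO mouse 2 (0.17), WT mouse 1 (0.12) or WT mouse 2 (0.05), with a range of 1.4e-04 to 0.17. The LP call was lost in a fit of the LP libraries alone (0.081) and without KO mouse 1 (0.11), KO mouse 2 (0.095), WT mouse 1 (0.084) or WT mouse 2 (0.15), with a range of 0.008 to 0.15.

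Atr and Atrip, the sensor kinase and its partner, did not share this rise. Atr (gene 245000, chromosome 9, 95857597 to 95953217) fell in LP, to 15.8, 25.6 and 41.4 CPM in KO against 38.7, 89.2 and 90.8 CPM in WT. The highest KO library was above the lowest WT library (log2 difference -1.40, SE 0.42, edgeR adjusted p = 0.035). The call was lost in a fit of the LP libraries alone (0.089) and without KO mouse 1 (0.11), KO mouse 3 (0.18), WT mouse 2 (0.18) or WT mouse 3 (0.078), with a range of 0.0064 to 0.18. In ML the groups did not overlap, at 24.6, 39.7 and 41.3 CPM in KO and 49.3, 52 and 69.7 CPM in WT, but the test did not pass (log2 difference -0.69, SE 0.42, edgeR adjusted p = 0.29). Basal KO stood at 22.3, 27.7 and 27.9 CPM and basal WT at 20.4, 51.4 and 77.6 CPM (log2 difference -0.94, SE 0.42, edgeR adjusted p = 0.43). Atr overlaps the lncRNA gene Gm16794 and the gene 1700065D16Rik. With a kit that does not mark strand, reads in the shared stretches cannot be assigned by strand and are uncertain.

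Atrip (gene 235610, chromosome 9, 109059747 to 109074124) differed between the WT populations. It stood at 31.2, 32.6 and 39.2 CPM in basal KO and 26.1, 41.3 and 46.5 CPM in basal WT, at 14.4, 15.5 and 18.4 CPM in LP KO and 19.3, 19.4 and 24.5 CPM in LP WT, and at 14.8, 15 and 17 CPM in ML KO and 12.4, 15 and 17.1 CPM in ML WT. The LP groups did not overlap, and none of the 3 genotype differences passed (log2 differences -0.15, -0.39 and 0.06, SE 0.24 each, edgeR adjusted p = 0.95, 0.29 and 0.9). In WT it was lower in LP than in basal cells by a log2 difference of -0.85 (SE 0.24, edgeR adjusted p = 0.0087) and in ML it was below basal cells by -1.35 (SE 0.24, adjusted p = 1.4e-04). The first was lost in a fit of those groups alone (0.06) and without WT mouse 1 (0.092, range 9.1e-04 to 0.092), and the second held in all 14 settings (up to 0.0048). A readthrough transcript of Atrip and Trex1 covers the gene and was not counted apart.

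Counted together, 4 of the 9 genes other than Wee1 rose and 0 fell in basal KO (Cdc25b, Cdc25c, Chek1 and Clspn), where 2.54% of all genes tested were called, 2.47% higher and 0.0668% lower. In LP KO 3 rose (Cdc25b, Cdc25c and Clspn) and Atr fell, where 13.2% of genes were called, 7.55% higher and 5.68% lower. In ML KO 5 rose (Cdc25b, Cdc25c, Chek1, Chek2 and Clspn) and 0 fell, where 15.1% were called, 12.5% higher and 2.62% lower. The median log2 difference of the 9 was 0.88 in basal KO, 0.70 in LP KO and 1.38 in ML KO, beside -0.02, 0.02 and 0.02 over all genes. The genotype contrast was in view when the set was drawn up, so these counts are given as they stand. Without overlap of the libraries, 4, 4 and 6 of the 9 were higher in basal, LP and ML KO, where 10.8%, 17.7% and 21.6% of all genes were. Atrip in LP and Atr in ML were lower without overlap, where 13.4% and 16.2% of all genes were, and 0 of the 9 were in basal cells, where 6.82% were. Differences of the genotype effect between populations passed for 0 of the 9 in each of the 3 edgeR interaction tests, in which 1.02% (LP against basal), 6.93% (LP against ML) and 6.1% (ML against basal) of all genes were called. At an unadjusted edgeR p under 0.05 the counts were 1, 0 and 1 of the 9, beside 2273, 3548 and 2914 of all 16466 genes. Limma voom gave 0 of the 9 in each, beside 85, 860 and 756 over all genes. DESeq2 gave 0, 0 and 1, beside 559, 1727 and 1437 over all genes.

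**Figure D3:**
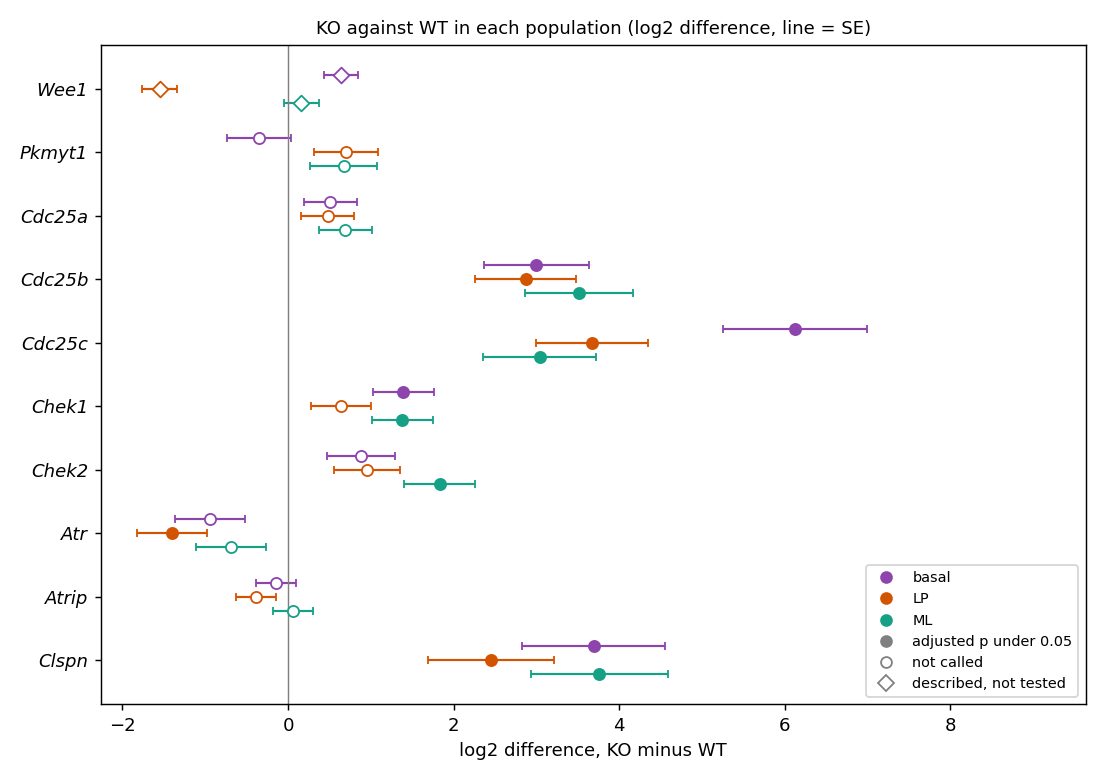
Log2 difference of KO over WT (x axis) for each gene (y axis) in basal, LP and ML cells, with the SE as a line. Filled circles have an adjusted p under 0.05, open circles were not called and diamonds are described with no test. Cdc25b, Cdc25c and Clspn lie between 2.45 and 6.12 in all populations, and Wee1 lies at -1.55 in LP and 0.64 in basal cells.

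Between WT populations the 9 genes other than Wee1 were tested. Of these, 4 were higher in LP than in basal cells (Cdc25c, Chek1, Chek2 and Clspn) and 1 was lower (Atrip), where 36.1% of all genes were called, 16.9% higher and 19.2% lower. Against ML, 2 were higher in LP (Chek1 and Chek2), where 34.0% of all genes were called (18.3% higher, 15.7% lower), and against basal cells 1 was higher in ML (Cdc25c) and 1 lower (Atrip), where 53.3% were called (24.8% higher, 28.5% lower). Clspn was higher in LP than in basal cells, though the groups overlapped, by a log2 difference of 2.93 (SE 0.86, edgeR adjusted p = 0.012), which was lost with limma voom (0.097) and without WT mouse 1 (0.067) or WT mouse 3 (0.082), range 0.0011 to 0.097. Over ML it was higher by 1.96 without passing (SE 0.81, edgeR adjusted p = 0.068), and it passed with the mouse as a block (2.09, adjusted p = 0.014) and in 3 other settings (range 0.014 to 0.26). Cdc25c was higher by 3.63 in LP than in basal cells (SE 0.94, edgeR adjusted p = 0.0053; 0.15 and 0.054 without WT mouse 1 and 2) and by 3.40 in ML than in basal cells (SE 0.94, adjusted p = 0.0054; 0.09 when thinned to 1 depth), both against the 4 counts of basal WT. The LP WT libraries held 17, 8 and 2 counts and overlapped basal WT in CPM, while those of ML WT held 8, 7 and 17 and did not. In a fit of the compared groups alone Cdc25c had no adjusted p for either difference.

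**Figure D4:**
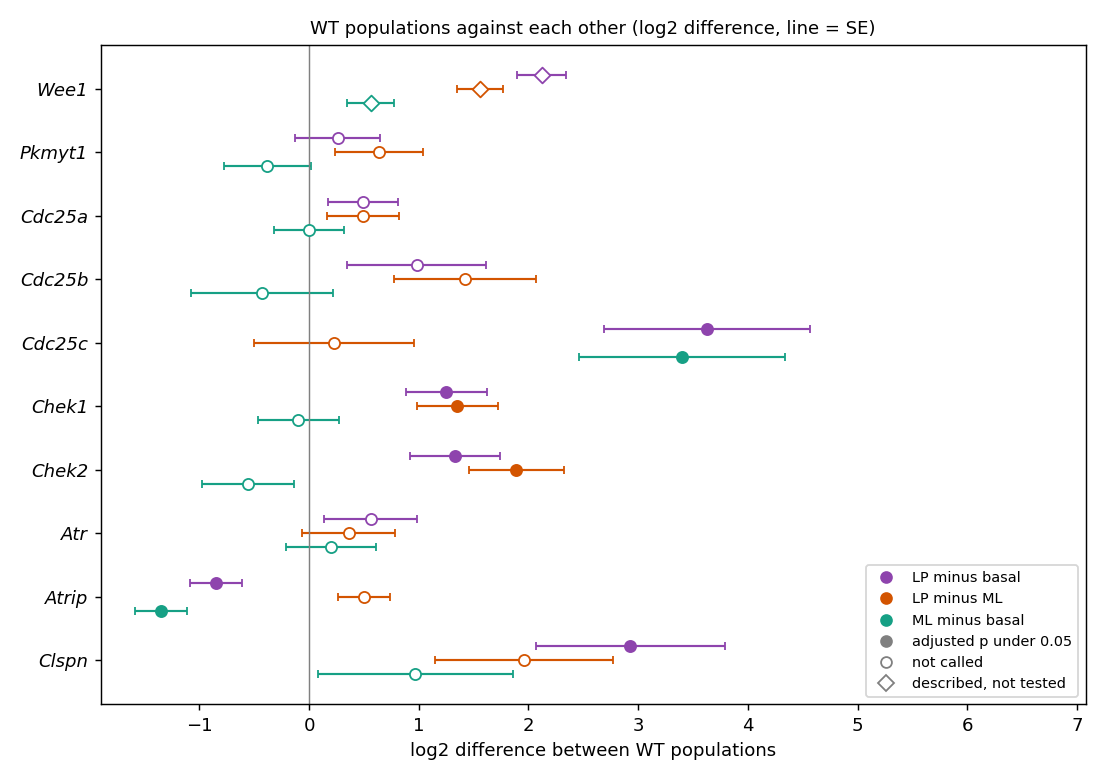
Log2 difference between WT populations (x axis) for each gene (y axis), with the SE as a line. Filled circles have an adjusted p under 0.05, open circles were not called and diamonds are described with no test. Wee1 is higher in LP than in basal cells (2.12) and ML (1.56), and Atrip is lower in both luminal populations than in basal cells (-0.85 and -1.35).

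Other genes of the pathway were counted from lists drawn up by function with earlier results known. Of 22 genes listed as a CDK1 module, 7 rose in basal KO, 10 in LP KO and 9 in ML KO, and 0 fell by edgeR. Over all genes 2.47%, 7.55% and 12.5% were higher. Among them Ccna2, cyclin A2, stood at 19.1 ± 10.8 in basal KO against 1.36 ± 0.598 CPM in basal WT, 69.3 ± 7.6 in LP KO against 7.58 ± 2.51 CPM in LP WT and 34.2 ± 10.8 in ML KO against 1.04 ± 0.505 CPM in ML WT (SD, n = 3; edgeR adjusted p = 9.1e-05, 3.2e-04 and 2.4e-06). Of 12 proliferation markers 7, 9 and 9 rose in basal, LP and ML KO and 0 fell, Cdk1 and Ccnb1 standing in both lists. Their summed level was 449 to 800.0 CPM in basal KO against 222 to 288 CPM in basal WT, 824 to 1263 CPM in LP KO against 220.5 to 429.9 CPM in LP WT and 424 to 855 CPM in ML KO against 95 to 169 CPM in ML WT. The KO sums lay above the WT sums in each population, as did Cdc25b, Cdc25c and Clspn, and the part of these markers in the results was not tested.

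Counts of the next 4 lists stand beside shares over all genes of 2.47% higher and 0.0668% lower in basal KO, 7.55% and 5.68% in LP KO, and 12.5% and 2.62% in ML KO, and nothing is read from them about a list. Of 14 genes that act in ATR activation, 3 rose in LP KO. In basal and ML KO edgeR called 0, DESeq2 called 0 and 1, and limma voom called 0 in both. Over all genes DESeq2 called 694 and 3085 there, and limma voom 387 and 2299. At an unadjusted edgeR p under 0.05 there were 4 and 1 of the 14, beside 1724 and 4727 of all 16466 genes. Among those that rose in LP KO was Rpa2, a subunit of the protein that coats single-stranded DNA, at 27.4 ± 1.75 against 8.64 ± 6.92 CPM (edgeR adjusted p = 0.024), and another Rhno1, which works with the checkpoint clamp, at 17.5 ± 4.24 against 8.55 ± 2.51 CPM (adjusted p = 0.03). Of 9 genes of the ATM branch, 1 fell in basal KO, 1 rose and 2 fell in LP KO, and 1 rose in ML KO. Mdc1, a mediator at double-strand breaks, fell in basal KO to 105 ± 18 against 196 ± 22.2 CPM (adjusted p = 0.029) and in LP KO to 64.5 ± 18.9 against 131 ± 9.1 CPM (adjusted p = 0.0058). H2ax, the histone variant marked at breaks, rose in LP KO to 53.5 ± 12 against 16 ± 0.866 CPM (adjusted p = 3.2e-04) and in ML KO to 27.7 ± 5.02 against 15.5 ± 0.495 CPM (adjusted p = 0.025). Of 28 genes of turnover and cofactors, 1 rose in basal KO, 4 rose and 2 fell in LP KO and 2 rose in ML KO. Melk, a cell cycle kinase, was the one that rose in basal cells, to 8.41 ± 4.62 against 0.103 ± 0.108 CPM (adjusted p = 7.5e-05). It rose as well in LP KO, to 40.1 ± 2.58 against 4.61 ± 3.06 CPM (adjusted p = 0.0019), and in ML KO, to 15.2 ± 4.19 against 0.934 ± 0.592 CPM (adjusted p = 1.5e-04). Of 9 measured genes linked to p53, 3 fell in LP KO and 1 in ML KO. In basal KO edgeR, DESeq2 and limma voom each called 0 of them. At an unadjusted edgeR p under 0.05 there was 1 in basal KO, beside 1724 of all 16466 genes. Among the 3 that fell in LP KO were Cdkn1a, at 135 ± 29 against 446 ± 197 CPM (adjusted p = 0.0054), and Mdm2, at 95.2 ± 17.1 against 176 ± 40.4 CPM (adjusted p = 0.02). The one that fell in ML KO was Gadd45a. There Gadd45a, a stress-induced inhibitor of CDK1, stood at 139 ± 22.9 against 447 ± 191 CPM (adjusted p = 6.6e-04). Over all genes the median log2 difference was between -0.02 and 0.02, and the list medians were 0.45, 0.72 and 0.80 for the CDK1 module in basal, LP and ML KO, and -0.25, -0.38 and -0.06 for the p53-linked genes.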

How the data were processed

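RNA from 18 sorted mammary libraries was sequenced, 1 per mouse and population. The authors deposited raw read counts per gene, and the submitters' processing notes name featureCounts and mm10. The kit named in the labels does not mark strand, and the sources used here give no strand setting. All 18 single-library files equalled the series-wide table, which holds 27179 gene identifiers, 25275 of them with a symbol.

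Counts were tested with edgeR 4.0.16 (R 4.3.3) by its quasi-likelihood test with TMM scaling, filterByExpr, 1 fit of all 6 groups and Benjamini-Hochberg adjustment over 16466 genes at a threshold of 0.05. CPM and RPKM were computed from the scaled libraries. Each edgeR SE is the size of the log2 difference over the square root of its quasi-likelihood F value. This holds for Wee1 as well, so its SE is a description from which no test is read. Alternatives were DESeq2 1.42.0, limma 3.58.1 voom, RLE scaling, no filter, a fit of the compared groups alone, thinning to 5973389 counts, leaving out each mouse, and a replicate block. Bias-adjusted dispersions were added after seeing the data. The scripts were tested on simulated data.

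The members and lists were chosen with earlier results of these data known. Tests of Wee1 between WT populations, planned at first, are not given, since those libraries enter the differences it was selected on. Named genes were the 10 members, Trp53 and Brca2 as targets, the 2 genes of lowest p per related list and genotype contrast, and the 3 genes most alike in pattern to Wee1, Chek1 and Cdc25b. Libraries of 1 mouse share that mouse, which pairs populations: their deviations correlated at 0.0949 to 0.334 over 18 pairs. The main fit had no block, so its comparisons between populations treated libraries of 1 mouse as independent. Intervals cover counting error only. The main p-values use a spread among mice estimated over all 6 groups of 3 libraries together.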

Additional observations from a re-analysis of the deposited data

Results flagged for a closer look

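For Wee1, the effect of KO in LP cells differed from that in basal cells by a log2 difference of -2.19. It drew attention because all 3 KO libraries lay above the WT libraries in basal cells and all 3 lay below them in LP. No test of the difference is given, since it is the value for which Wee1 was chosen.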

How the results depend on the processing

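The number of the 9 genes called in KO was 4 in basal cells and became 2 with limma voom, and it was 4 in LP and became 2 in a fit of the LP libraries alone. DESeq2 called 1 gene (Cdc25c) for the ML against the basal effect, where edgeR called 0, and 4 between LP WT and ML WT, where edgeR called 2. In a fit of the compared groups alone, 3 genes were called between LP WT and basal WT, where the fit of all libraries called 5. There Atrip was lost (0.06), and Cdc25c had no adjusted p, so it was not lost by a test. Between ML WT and basal WT a fit of those groups alone and thinning each called 1 (Atrip), against 2, and Cdc25c again had no adjusted p in the fit of those groups. Leaving out 1 mouse gave 1 to 3 genes in basal cells, 2 to 6 in LP, 4 to 5 in ML, 2 to 5 between LP WT and basal WT and 1 to 2 between LP WT and ML WT. Over all genes, the 418 calls in basal cells became 694 with DESeq2, and the 2178 in LP became 688 in a fit of the LP libraries alone. The 168 calls for the LP against the basal effect became 559 with DESeq2, 85 with limma voom and 437 with the replicate block, and the 1141 for the LP against the ML effect became 1727 with DESeq2 and also with the block. Leaving out 1 mouse gave 207 to 431 genes in basal cells, 579 to 2255 in LP and 1526 to 2403 in ML, 30 to 138, 604 to 887 and 607 to 937 for LP against basal, LP against ML and ML against basal effects, and 3864 to 6035 and 3384 to 5725 for LP WT against basal WT and against ML WT. The cause of these shifts was not tested.

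Reversed signs occurred in differences that did not pass the test. For the LP against the basal effect Cdc25a became 0.10 with the block (mouse left out -0.37 to 0.61), Cdc25b 0.41 with limma voom and 0.11 with the block (-0.53 to 0.74), and Chek2 ran -0.19 to 0.41. For the LP against the ML effect Pkmyt1 became -0.01 with DESeq2 and with RLE and -0.08 when thinned (-0.29 to 0.39), Cdc25a ran -0.41 to 0.25 and Cdc25b -1.49 to 0.47. For the ML against the basal effect Chek1 became 0.01 in the fit of those groups, 0.02 with no filter, 0.04 with the block and 0.40 when thinned (-0.24 to 0.48), Clspn -0.12 with bias-adjusted dispersions (-0.55 to 1.32), and Atr ran -0.25 to 0.54 and Atrip -0.05 to 0.57. Between LP WT and ML WT Cdc25c became -0.47 with limma voom and -0.08 with the block (-0.57 to 0.77). Between ML WT and basal WT Cdc25a became -0.07 with DESeq2 and with RLE, -0.01 in the fit of those groups, -0.06 with no filter and -0.03 with the block (-0.2 to 0.14), Chek1 ran -0.62 to 0.1, Atr -0.09 to 0.67 and Clspn -0.3 to 1.57. Between LP WT and basal WT Pkmyt1 ran -0.14 to 0.49 and Cdc25a -0.16 to 0.84. In KO against WT Atrip ran -0.36 to 0.03 in basal cells and -0.02 to 0.21 in ML, and Brca2 -0.08 to 0.84 in ML.

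For KO against WT the replicate block uses a number shared by different mice, whose deviations correlated at -0.0977 to 0.258 over 9 pairs, 4 of them over 0.1, so it pairs no animals, and it gave 453, 2859 and 3057 calls over all genes in basal, LP and ML cells. With the mouse as a block, Clspn passed between LP WT and ML WT, and neither block changed another call among the 9 genes. Low counts limit Cdc25c in basal WT, where 4 reads were counted, and also in LP WT (27 over the group) and ML WT (32). They limit Clspn in basal WT (33) and ML WT (59) and Cdc25b in ML WT (57) as well.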
